A study of Rattus norvegicus with 36 samples.

Results

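The response described here is that of the mammary gland of Cop rats 1 day after N-nitrosomethylurea (NMU), set against glands of Cop rats given saline. It rests on 6 of the 36 arrays of the series, the 3 titled as Cop rats treated with NMU at 1 d and the 3 titled as their controls, and it is described over all probe sets. Cop is an inbred rat strain known for its resistance to chemically induced mammary tumours. All 6 rats were 55 days old when treated. The NMU group received NMU, with no dose given by the sources used here, and the control group received the saline vehicle at the same age. The series as a whole holds 12 groups of 3 arrays: Cop and F344 rats, an inbred strain that does develop such tumours, each with NMU or vehicle, at 6 h, 1 d and 30 d. Total RNA of whole gland was labelled with biotin and hybridised to rat Affymetrix arrays. The labels call the 3 arrays of a group biological replicates and say no more of their source. The p-values therefore measure the spread between arrays within groups, pooled over all 36 arrays and not the 6 alone. In whole tissue, fewer cells of a type and less RNA per cell cannot be told apart.

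NMU is a direct-acting alkylating agent that methylates DNA without needing metabolic activation, and it is a classic mammary carcinogen in young female rats. Alkylated bases are removed by the methyltransferase Mgmt or by base excision repair, and unrepaired damage can hold cells at checkpoints that are partly run by p53. The virgin gland of this age is a small, cycling epithelial tree in a large fat pad, so that its RNA carries the lipid metabolism of fat cells, the matrix of fibroblasts and the signals of resident immune cells beside those of epithelium.

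The tissue label was checked against marker genes. On all 6 arrays the luminal keratin Krt8 was between 9.74 and 10.23, the epithelial adhesion molecule Epcam between 10.24 and 10.90, the fat cell hormone Adipoq between 11.36 and 11.87 and the milk casein Csn2 between 11.08 and 13.68 on the log2 scale. Array medians over the series ran from 5.66 to 5.77 log2 units, so these markers were all well above the middle of their array. The arrays of the NMU group differed from each other by 0.344 to 0.422 (root mean square log2 difference over probe sets) and the controls by 0.302 to 0.388. NMU replicate 1 lay at 0.399 from control replicate 1, which was nearer than either array of its own group, at 0.422 and 0.41.

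At an adjusted p under 0.05, 158 of 20749 probe sets were called (0.761% of those tested), 85 higher (0.41%) and 73 lower (0.352%) after NMU. They named 131 genes, and 15 called probe sets had no single gene symbol. The lower genes moved farther: 45 of the 73 lower calls reached 1 log2 unit, against 30 of the 85 higher calls. The NMU and control arrays did not overlap for all 85 higher and for 72 of the 73 lower calls, Septin9 being the exception. Such separation largely follows from calling by the difference between the same arrays. Of all tested probe sets 7.45% lay wholly above and 7.1% wholly below their controls. Counted once per gene, by its brightest probe set, 121 of 11509 genes were called (1.05%), 69 higher (0.6%) and 52 lower (0.452%). The gene lists below also count each gene once. The shares per gene are therefore the like base for them, and those of probe sets are somewhat lower. The median change over all genes was 0.0040 log2 units. No measure of background was used here, and a difference from a dim group is given on the log2 scale of the table without a fold. The 40th percentile of the 6 arrays was between 4.98 and 5.05. In 11 of the 73 lower calls all 3 NMU arrays were at or under it (among genes named here Mki67, Ccna2, Uhrf1 and Cd40lg), and in 5 of the 85 higher calls all 3 controls were (Cxcl11 among them). The count depended on single arrays: 45 probe sets were called without control replicate 1, 57 without control replicate 2, 51 without NMU replicate 1 and 51 without NMU replicate 2. Of the 158 calls, 27 held whichever of the 6 arrays was left out, 18 of them higher and 9 lower, and none changed sign under any setting.

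**Figure D1:**
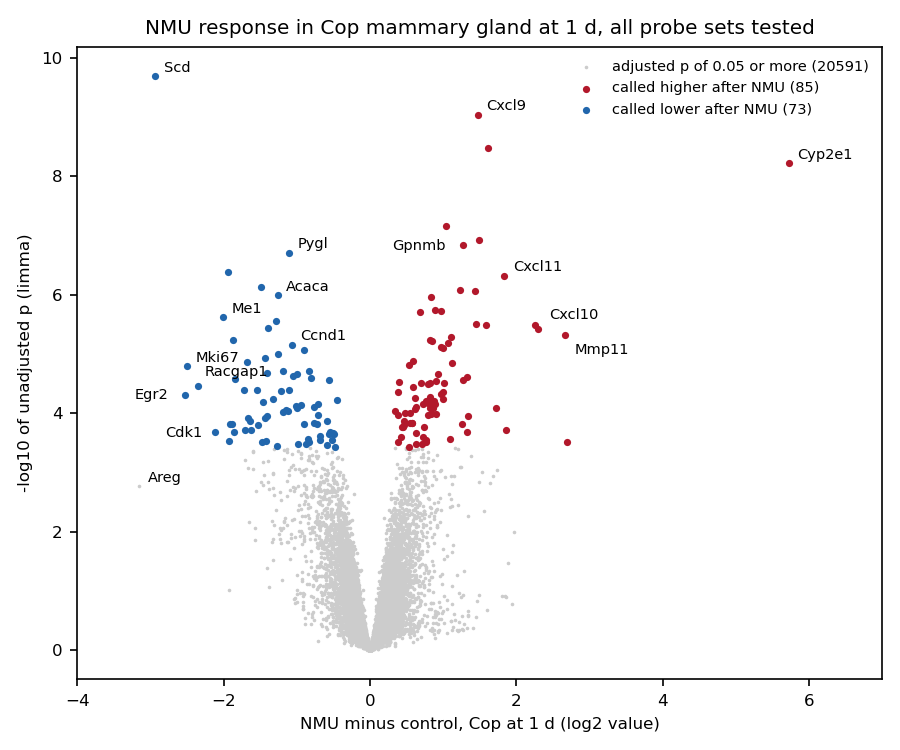
Log2 difference of NMU minus control in Cop glands at 1 d (x axis) against the minus log10 of the unadjusted limma p (y axis) for each of 20749 probe sets, with the 85 called higher in red and the 73 called lower in blue. Cyp2e1 stands alone at the right with a difference of 5.73, Scd has the smallest p at -2.93, and Areg at -3.15 is the farthest left without being called.

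Genes of foreign compound metabolism gave the largest rise of the response. Cyp2e1, a cytochrome P450 that oxidises small molecules such as ethanol and acetone, was at 11.31, 11.81 and 10.88 log2 units in the NMU glands (replicates 1 to 3), against 5.30, 6.12 and 5.40 in the controls. Every NMU array lay far above every control, and the fitted difference was 5.73 ± 0.67 (SE), with an adjusted p of 3.12e-05. The controls lay near their arrays' medians, so no fold is given. No other array of the series reached these levels, the highest of the other 30 being at 10.24. The level of Cyp2e1 in untreated Cop glands was itself not the same at each time: the 3 controls at 1 d were between 5.30 and 6.12, and the 3 controls at 6 h between 8.82 and 10.24.

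Fmo1, a flavin monooxygenase that oxygenates nitrogen and sulfur compounds, was at 9.98, 10.56 and 10.10 after NMU, against 8.54, 9.16 and 8.58 in controls. Its rise of 1.46 ± 0.25 (adjusted p 0.00296) came without overlap between the groups. Aox1, an aldehyde oxidase, rose by 1.23 ± 0.20 (adjusted p 0.00138), with 8.09, 8.31 and 8.29 in NMU glands, against 6.85, 6.99 and 7.14 in controls. The microsomal epoxide hydrolase Ephx1 rose by 1.02 (adjusted p 0.011), the carboxylesterase Ces1d by 0.90 (adjusted p 0.0214) and the glutathione transferase Gstt2 by 0.81 (adjusted p 0.00412). These 6 were the calls among 28 tested genes of foreign compound metabolism. They stand against 0.6% of all genes called higher. No member was called lower, 16 lay wholly above their controls (7.45% of all probe sets did), and the median change was 0.31. Leaving out NMU replicate 2 reduced the 6 calls to 3. For Ces1d the controls were the arrays that stood apart. They were at 11.30, 11.30 and 11.09, while the lowest of the 30 other arrays of the series was at 11.68. Of those 30, 23 reached the lowest Ces1d value of the NMU glands. For Aox1 22 of the 30 did, and the lowest of them was at 6.89, within the range of the controls.

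The strongest fall, by p, was in fatty acid synthesis. Scd, the desaturase that makes oleate from stearate, was at 9.81, 9.28 and 9.46 in NMU glands, against 12.32, 12.70 and 12.31 in controls. The groups were far apart even at their nearest arrays, and the fit gave -2.93 ± 0.29, or 7.63-fold lower, with an adjusted p of 4.2e-06. All 30 other arrays of the series had more Scd signal than any of these NMU glands. Me1, the malic enzyme that supplies NADPH for lipid synthesis, was at 9.55, 9.07 and 9.42 after NMU, against 11.44, 11.59 and 11.02 in controls, and fell by 2.01 ± 0.34 (adjusted p 0.00259). A second Me1 probe set fell by 1.87 (adjusted p 0.00412). Acaca, the acetyl-CoA carboxylase that commits carbon to fatty acids, fell by 1.26 and by 1.40 on its 2 probe sets, with adjusted p of 0.0015 and 0.00956. On the brighter of them it was at 9.86, 9.86 and 10.14 in NMU glands, against 11.20, 11.34 and 11.10 in controls, without overlap.

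The elongase Elovl6, which lengthens palmitate, gave -1.84 (adjusted p 0.0107) on one probe set and -1.60 (adjusted p 0.0525) on its brighter one. Transketolase (Tkt), of the pentose phosphate pathway, fell by 0.83 (adjusted p 0.0423), and with the replicate number as a block its adjusted p was 0.051. Fasn, the fatty acid synthase itself, was not called: it was at 12.47, 12.21 and 12.30 after NMU, against 12.90, 12.87 and 12.85 in controls (difference -0.55, adjusted p 0.272). The citrate lyase Acly had a difference of -0.74 (adjusted p 0.197). Srebf1, which encodes a transcription factor of lipid synthesis, had 0.37 (adjusted p 0.319). Acacb, the mitochondrial carboxylase whose product restrains fatty acid oxidation, rose by 1.10 (adjusted p 0.0406). In all, 4 of 21 tested genes of this pathway fell, against 0.452% of all genes, and 1 rose. Of the 21, 12 lay wholly below their controls, where 7.1% of all probe sets did, and the median change was -0.56. Counted with the 6 compared arrays alone, 10 fell and none rose. Leaving out any one of the 6 arrays except NMU replicate 3 also ended the call of Acacb, as did testing without the filter on dim probe sets.

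The lanosterol demethylase Cyp51 fell by 0.71 (adjusted p 0.0214). It was the one call among 20 tested genes of sterol synthesis, against 0.452% of all genes called lower. All 20 had a negative difference, 15 lay wholly below their controls (7.1% of all probe sets did), and the median was -0.40. Leaving out any one of control replicates 1 and 2 and NMU replicates 1 and 2 ended this call. Fabp5, a carrier of fatty acids inside cells, was at 10.27, 10.26 and 10.90 in NMU glands, against 11.78, 11.96 and 11.44 in controls, and fell by 1.25 ± 0.23 (adjusted p 0.00577). Glycogen enzymes gave 2 falls among 11 tested genes, against 0.452% of all genes called lower. Pygl, the glycogen phosphorylase known from liver, fell by 1.10 ± 0.16 (adjusted p 0.000506), with 8.46, 8.51 and 8.84 after NMU, against 9.56, 9.95 and 9.61 in controls. The branching enzyme Gbe1 fell by 1.00 (adjusted p 0.019). The other 9 glycogen genes were not called, and the list's median was 0.13.

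Genes that break down stored fat were among those that rose. Pnpla2, which takes the first fatty acid from a triglyceride, was at 10.91, 11.11 and 10.96 in NMU glands, against 9.61, 9.77 and 9.82 in controls, and rose by 1.26 ± 0.28 (adjusted p 0.0265). Its coactivator Abhd5 rose by 0.58 (adjusted p 0.0264). Pnpla7, a lysophospholipase, rose by 0.90 (adjusted p 0.011). Cidec, a protein of the lipid droplet surface, rose by 0.82 (adjusted p 0.0175), and it was at 12.20, 12.14 and 12.04 after NMU, against 11.26, 11.35 and 11.33 in controls. These values put both groups in narrow and separate bands. Pnpla2, Abhd5 and Pnpla7 were the calls among 13 tested lipolysis genes, against 0.6% of all genes called higher. No member was called lower, and the list median was 0.03. Pnpla3, a relative of Pnpla2, had the largest difference of the list, -1.57 (adjusted p 0.223), and the glycerol channel Aqp7 had -0.60 (adjusted p 0.499), both without a call although their NMU arrays lay wholly below the controls. Xdh, xanthine oxidoreductase, which also coats milk fat globules, rose by 0.69 ± 0.12 (adjusted p 0.00228). The 22 tested fat cell markers averaged 10.66, 10.60 and 10.64 on the NMU arrays, against 10.48, 10.50 and 10.45 on the control arrays, and 2 of them (Cidec and Pnpla2) were called. The part of fat cell content in these rises was not tested.

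Enzymes of mitochondria and peroxisomes that oxidise fatty acids gave 3 rises among 25 tested genes and no fall, with a median of 0.22. Phyh, the peroxisomal hydroxylase of phytanic acid, rose by 1.11 ± 0.20 (adjusted p 0.00401), being at 10.61, 10.82 and 10.77 in NMU glands, against 9.33, 9.82 and 9.71 in controls. Ech1 and Eci1, enzymes that shift double bonds for the oxidation of unsaturated fatty acids, rose by 0.97 (adjusted p 0.0048) and by 0.58 (adjusted p 0.0264). Amino acid enzymes were also among the rises. Cbs, which joins homocysteine and serine, was at 6.98, 8.18 and 7.96 after NMU, against 6.30, 6.16 and 6.35 in controls, and rose by 1.44 ± 0.23 (adjusted p 0.00138). NMU replicate 1 was the lowest of its group but still above every control. The proline dehydrogenase Prodh rose by 0.97 (adjusted p 0.00228). The alanine transaminase Gpt2 had 1.34 (adjusted p 0.0222) on one probe set and 1.10 (adjusted p 0.155) on the other. Of 19 tested genes of branched-chain amino acid breakdown, Bcat2 and Aldh6a1 rose, by 0.83 (adjusted p 0.019) and 0.76 (adjusted p 0.0423), and the median of the list was 0.28. Of 20 tested lysosomal genes, Npc2, which carries cholesterol out of lysosomes, the protease Ctsa and the ganglioside cofactor Gm2a rose, by 0.40, 0.47 and 0.42, with a list median of 0.23. The oxidation, branched-chain and lysosomal calls stand beside 0.6% of all genes tested that were called higher. The lipolysis, oxidation, branched-chain and lysosomal lists were drawn up after the values were seen, so their counts are descriptions.

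**Figure D2:**
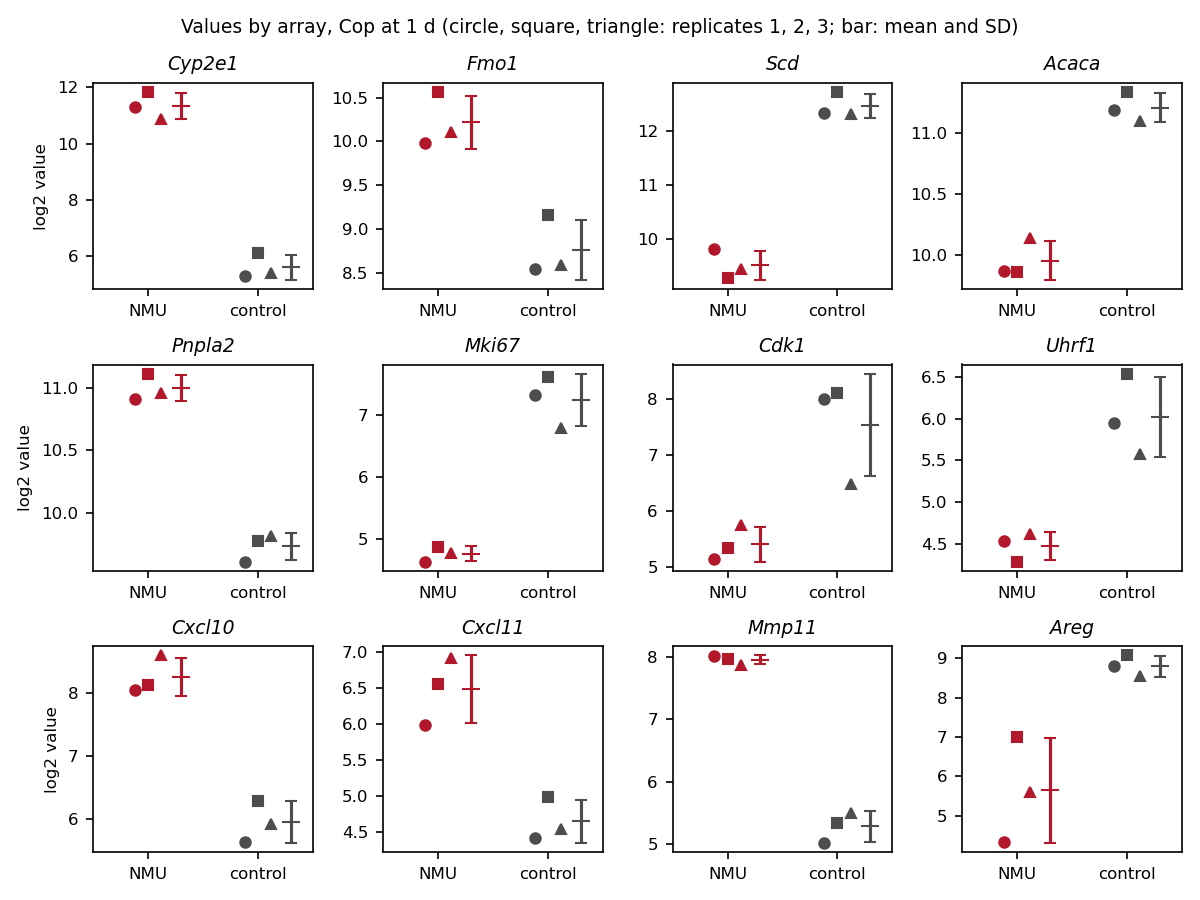
Log2 value on each of the 6 arrays for 12 genes, NMU in red at the left and control in grey at the right of each panel, with the group mean and SD as a bar (n = 3 each); a gene with several probe sets is shown by the one of smallest p. The groups are separate in every panel, which follows largely from naming genes by calls without overlap and showing the probe set of smallest p. Areg is the gene whose NMU arrays scatter most, between 4.33 and 7.0.

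Genes of cell division were among the falls. Genes that peak in G2 and M phase are known to carry a cell cycle homology region (TTTGAA) near their start, often with CCAAT boxes, through which repressor and activator complexes set their timing. Promoters of 3 such genes that fell are shown because they belong to the group whose members moved together, each 250 bases before to 50 after the start, from RefSeq (GRCr8). Capitals mark each match to TTTGAA or CCAAT on either strand (TTCAAA and ATTGG on the other). Cdk1 is at chr20:19265043-19265342 on the + strand, Ccnb2 at chr8:79981609-79981908 on the - strand and Mki67 at chr1:199952544-199952843 on the - strand.
Cdk1: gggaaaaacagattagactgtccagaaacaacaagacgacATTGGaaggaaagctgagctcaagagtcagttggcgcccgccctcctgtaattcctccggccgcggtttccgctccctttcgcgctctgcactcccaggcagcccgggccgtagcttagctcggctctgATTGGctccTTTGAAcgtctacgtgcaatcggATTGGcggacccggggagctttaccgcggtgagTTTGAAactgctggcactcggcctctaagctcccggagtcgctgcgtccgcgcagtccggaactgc
Ccnb2: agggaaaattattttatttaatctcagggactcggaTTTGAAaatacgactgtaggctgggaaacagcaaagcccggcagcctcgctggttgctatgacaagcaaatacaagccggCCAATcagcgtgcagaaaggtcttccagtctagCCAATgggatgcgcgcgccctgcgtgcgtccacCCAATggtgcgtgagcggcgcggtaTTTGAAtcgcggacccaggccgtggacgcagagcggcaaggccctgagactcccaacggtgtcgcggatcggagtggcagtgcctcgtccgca
Mki67: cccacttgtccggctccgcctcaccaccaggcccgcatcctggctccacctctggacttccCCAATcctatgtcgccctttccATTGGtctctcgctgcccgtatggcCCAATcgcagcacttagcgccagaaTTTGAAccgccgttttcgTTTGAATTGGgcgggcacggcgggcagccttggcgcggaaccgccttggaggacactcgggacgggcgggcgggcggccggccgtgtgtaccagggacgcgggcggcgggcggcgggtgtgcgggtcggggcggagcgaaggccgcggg
Cdk1 and Ccnb2 each held 2 TTTGAA matches and 3 CCAAT boxes, and Mki67 held 2 and 4, of which one of each overlap. Of 35 tested G2 and M phase genes, 31 had an entry, with 33 promoters. TTTGAA was present in 69.7% of these, against 18.3% of all 33469 promoters, and TTTGAA together with CCAAT in 60.6%, against 7.41% of all. In the 27 promoters of 25 S phase genes the share with both was 0.0%. A match is a description of these letters and not a site shown to be used.

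Mki67, which encodes the proliferation marker Ki-67, was at 4.63, 4.87 and 4.77 in NMU glands, against 7.34, 7.62 and 6.80 in controls. The 3 NMU arrays were close to each other and well below the lowest control. The difference was -2.49 ± 0.47 (adjusted p 0.00789). Cdk1, the kinase that drives entry into mitosis, was at 5.14, 5.33 and 5.75 after NMU, against 8.0, 8.11 and 6.48 in controls (-2.12 ± 0.49, adjusted p 0.0333). Control replicate 3 was the lowest control for Cdk1 and for most of its neighbours in this group. Ccnb1, Ccnb2 and Ccna2, the mitotic and S phase cyclins that partner Cdk1, fell by 1.65, 1.89 and 1.86, with adjusted p of 0.0256, 0.0265 and 0.0333. Racgap1, needed for the division furrow, fell by 2.35 (adjusted p 0.0121). Top2a, the topoisomerase that untangles sister chromatids, fell by 1.70 (adjusted p 0.0317), and Cks2, a subunit of Cdk1 complexes, fell by 1.72 (adjusted p 0.0132). The spindle protein Nusap1 fell by 1.93 (adjusted p 0.0423), with an adjusted p of 0.0552 when the replicate number was a block.

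Across the 35 tested G2 and M phase genes, 9 fell, against 0.452% of all genes, and none rose at the threshold, with a median of -1.19. All 35 differences were negative, from -2.49 to -0.44, and 34 of the 35 lay wholly below their controls, where 7.1% of all probe sets did. The mean level of the list was 4.87, 4.88 and 5.06 on the NMU arrays, against 6.26, 6.47 and 5.81 on the controls. The number of calls depended on single arrays: no member was called without control replicate 1, without control replicate 2 or without NMU replicate 1, 2 were called without NMU replicate 2 and 3 without NMU replicate 3. With the 6 compared arrays alone 20 were called. In 14 of the 35 genes all 3 NMU arrays were at or under the 40th percentile of their array, so the size of those falls is uncertain.

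S phase genes were also among the falls. Uhrf1, which keeps DNA methylation through replication, was at 4.53, 4.29 and 4.61 in NMU glands, against 5.95, 6.54 and 5.58 in controls, and fell by 1.54 ± 0.32 (adjusted p 0.0132). Cdt1, a licensing factor for replication origins, fell by 1.33 (adjusted p 0.0165), with 5.48, 6.08 and 5.81 after NMU, against 7.17, 7.48 and 6.71 in controls. Subunits of the replicative helicase followed: Mcm6 fell by 1.19 (adjusted p 0.0208) and Mcm7 by 0.76 (adjusted p 0.0185). Mcm4 and Mcm2 fell by 0.87 and 0.85 (adjusted p 0.0452 and 0.0399), and with the replicate number as a block their adjusted p were 0.05 and 0.051. The polymerase subunit Pole2 fell by 1.01 (adjusted p 0.0185). Pclaf, a PCNA-binding protein, fell by 1.91 (adjusted p 0.0265). Cdca7, a cofactor of a chromatin remodeller, fell by 1.29 ± 0.22 (adjusted p 0.0029), and its call held without any one of the 6 arrays. Its controls, at 7.85, 8.0 and 8.11, were above all 30 other arrays of the series, the highest of which was at 7.80. The Cdca7 values of the NMU glands lay within the range of those 30, and 13 of them were at or below the highest NMU array. Thymidine kinase (Tk1) had -1.22 (adjusted p 0.0134) on one probe set and -0.69 (adjusted p 0.12) on its brightest. Of 28 tested S phase genes 7 fell, against 0.452% of all genes, and none rose. All 28 differences were negative, 23 lay wholly below their controls, where 7.1% of all probe sets did, and the median was -0.66. Without control replicate 1 or control replicate 2 no member was called, without NMU replicate 1 or NMU replicate 2 only 1 was, and without NMU replicate 3 there were 4.

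Both an activator and an inhibitor of entry into S phase were called. Cyclin D1 (Ccnd1), which links growth signals to the cycle, fell by 1.07 and 0.83 on 2 probe sets (adjusted p 0.00451 and 0.00923), while its brightest probe set had -0.98 (adjusted p 0.103). On the first of these the NMU glands were at 7.30, 7.81 and 8.30, against 8.79, 9.11 and 8.72 in controls. The inhibitor Cdkn1c, known as p57, rose by 1.33 ± 0.31 (adjusted p 0.0333) to 8.52, 8.38 and 8.59, against 6.89, 7.51 and 7.09 in controls. The groups did not overlap for either gene. Among 23 tested ribosome biogenesis genes, a list chosen after the values were seen, Bop1, Nhp2 and Riox2 fell, by 0.45, 0.55 and 0.55. Over all genes tested 0.452% were called lower. In the ribosome list 22 of the 23 differences were negative, with a median of -0.20.

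Cell type markers were read beside the fall of cell cycle genes. The 24 tested luminal genes averaged 7.83, 8.05 and 7.82 on the NMU arrays, against 8.10, 8.02 and 7.79 on the controls, which overlap. The 18 basal genes averaged 8.24, 8.29 and 8.46, against 8.59, 8.53 and 8.52, so that every NMU array was lower. The 23 T and NK cell genes averaged 6.78, 6.70 and 7.20, against 6.95, 7.09 and 7.79. The 10 B cell genes averaged 8.20, 8.21 and 8.80, against 7.96, 8.22 and 9.52, and that last value, of control replicate 3, was the highest of all 36 arrays. The 27 skeletal muscle genes averaged 5.96, 9.02 and 7.95 on the NMU arrays, against 7.05, 7.37 and 5.77 on the controls. The muscle differences were all positive, with a median of 0.88, but the groups overlapped for 26 of the 27 genes. No gene of these 5 lists was called, and the part of cell content in the results was not tested.

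**Figure D3:**
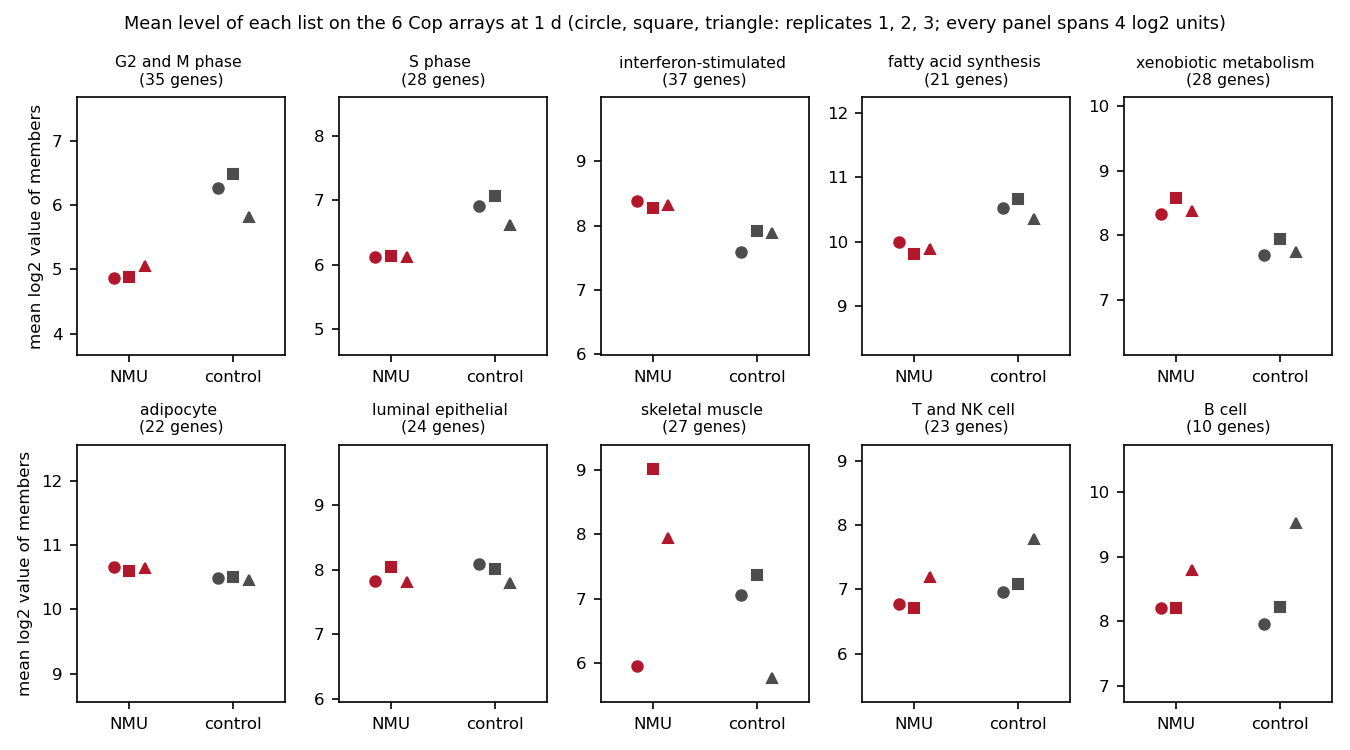
Mean log2 level of the tested members of 10 gene lists on the 6 arrays, NMU in red at the left and control in grey at the right, with replicates 1 to 3 as circle, square and triangle and every panel spanning the same range. The cell cycle, fatty acid synthesis, foreign compound and interferon lists separate the groups, while muscle genes spread from 5.96 to 9.02 within the NMU group.

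Interferon-induced chemokines rose. Many interferon-stimulated genes carry a response element (GAAANNGAAA) near their start, and the 2 promoters shown belong to genes of this group that rose, from RefSeq (GRCr8) with the same window as above. Capitals mark the matches to GAAANNGAAA on either strand, which in Oas1a are 2 that overlap. Cxcl10 is at chr14:15988816-15989115 and Oas1a at chr12:41330216-41330515, both on the + strand.
Cxcl10: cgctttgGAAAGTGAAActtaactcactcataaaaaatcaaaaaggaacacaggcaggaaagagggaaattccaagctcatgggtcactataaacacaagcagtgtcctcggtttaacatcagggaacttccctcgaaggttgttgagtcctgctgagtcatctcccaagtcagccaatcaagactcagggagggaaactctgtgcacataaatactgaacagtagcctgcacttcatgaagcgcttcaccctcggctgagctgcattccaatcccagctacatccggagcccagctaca
Oas1a: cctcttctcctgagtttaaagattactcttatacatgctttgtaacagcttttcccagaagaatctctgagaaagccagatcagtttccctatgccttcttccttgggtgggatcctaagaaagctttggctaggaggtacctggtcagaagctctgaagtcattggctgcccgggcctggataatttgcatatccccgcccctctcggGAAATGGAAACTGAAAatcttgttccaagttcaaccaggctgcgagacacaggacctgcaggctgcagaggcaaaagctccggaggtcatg
Of 37 tested interferon-stimulated genes 31 had an entry, and 67.7% of their 31 promoters held the element, against 3.92% of all promoters. The promoters of Cxcl9 and Cxcl11 were not listed singly, so nothing is said here of the element in them. Here too a match describes letters and is not a site shown to be used.

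Cxcl9, Cxcl10 and Cxcl11, chemokines that draw activated T and NK cells through the receptor Cxcr3, were the leading members. Cxcl10 was at 8.04, 8.12 and 8.60 in NMU glands, against 5.63, 6.29 and 5.93 in controls (2.30 ± 0.40, adjusted p 0.00319). Cxcl11 was at 5.98, 6.54 and 6.91 after NMU, against 4.41, 4.98 and 4.54 in controls (1.84 ± 0.28, adjusted p 0.000985). Cxcl9 was at 8.94, 8.57 and 8.63, against 6.69, 7.49 and 7.51 (1.48 ± 0.17, adjusted p 9.45e-06), and a second probe set gave 1.61. All 3 were called without any one of the 6 arrays. Oas1a, a sensor of double-stranded RNA, rose by 0.82 (adjusted p 0.0159). The other 33 of 37 tested interferon-stimulated genes were not called: the antiviral GTPase Mx1 had 0.96 (adjusted p 0.519), the factor Irf7 0.74 (adjusted p 0.0831) and the ubiquitin-like Isg15 0.70 (adjusted p 0.194). Even so 35 of the 37 differences were positive, 22 lay wholly above their controls, where 7.45% of all probe sets did, and the median was 0.34. Over all genes tested 0.6% were called higher in the main fit. With the 6 compared arrays alone 10 interferon-stimulated genes were called, and 7 when the probe sets of a gene were averaged. Among 15 tested MHC genes the class I gene RT1-S3 rose, by 0.79 (adjusted p 0.0214), with 10.72, 10.36 and 10.41 after NMU, against 9.42, 9.73 and 9.97 in controls. Probe sets of this family can share sequence, so the member is uncertain.

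Immune cell genes with a call were few. Gpnmb, a glycoprotein of lipid-laden macrophages, was at 10.78, 11.03 and 10.77 in NMU glands, against 9.28, 9.81 and 9.67 in controls, and rose by 1.28 ± 0.19 (adjusted p 0.000435). No other array of the series reached the lowest of these NMU values. Of 23 tested macrophage and dendritic cell genes Gpnmb was the one call, where 0.6% of all genes were called higher. In this list 21 of the differences were positive, with a median of 0.23. Of 3 tested neutrophil genes Fcnb, a ficolin of myeloid cells, rose by 1.72 (adjusted p 0.019), with 8.45, 7.84 and 8.70, against 6.42, 6.02 and 7.41. The other two, the calcium-binding proteins S100a8 and S100a9, had differences of -0.20 and -0.43 (adjusted p 0.913 and 0.81) with overlapping groups, and S100a8 was at or under the 40th percentile on all 6 arrays. Cd40lg, the ligand by which helper T cells activate B cells, fell by 1.43 ± 0.27 (adjusted p 0.00649), with 4.23, 3.94 and 4.36, against 5.02, 5.39 and 6.42. Control replicate 3, the array with the most lymphocyte signal, was the highest for Cd40lg, while the other 2 controls were also above every NMU array.

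Called matrix proteases rose and called matrix proteins fell. Mmp11, a protease of stroma and of involuting gland, was at 8.01, 7.97 and 7.87 in NMU glands, against 5.02, 5.35 and 5.50 in controls. The NMU arrays were close together and far above the controls, and the rise was 2.66 ± 0.47 (adjusted p 0.00389). As with Cyp2e1, the untreated Cop glands differed between times, with Mmp11 between 5.02 and 5.50 in the 1 d controls and between 6.94 and 8.36 in the 6 h controls. The gelatinase Mmp2 rose by 0.89 ± 0.15 (adjusted p 0.00228). These were the 2 calls among 19 tested proteases and inhibitors, against 0.6% of all genes called higher. The protease Adamts9 had -1.13 (adjusted p 0.0525). Of 32 tested fibroblast and matrix genes Col15a1, a collagen of basement membrane zones, was the one call, against 0.452% of all genes called lower. It fell by 0.91 and 0.94 on 2 probe sets (adjusted p 0.0051 and 0.0182). The type IV collagen Col4a1 had -0.71 (adjusted p 0.0176) on one probe set and -0.34 (adjusted p 0.35) on its brightest. Pamr1, a secreted protein of muscle regeneration, rose by 1.33 ± 0.27 (adjusted p 0.0105).

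**Figure D4:**
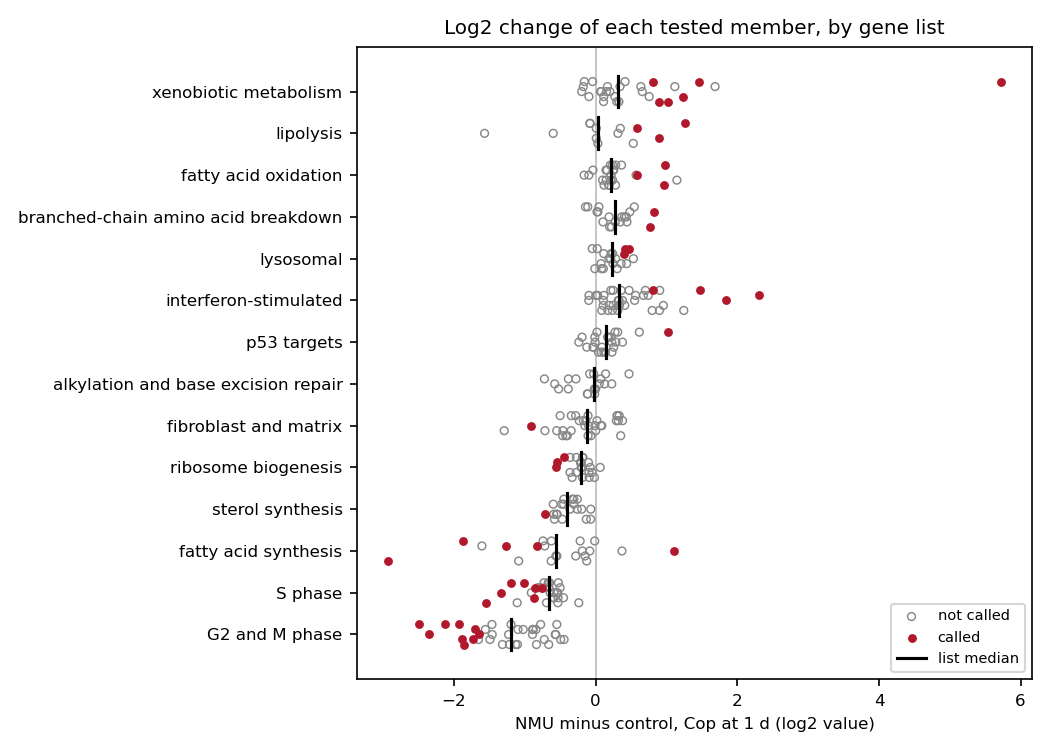
Log2 difference of NMU minus control for every tested member of 14 gene lists, by its brightest probe set, with called genes in red, uncalled genes as open circles and the list median as a black bar. All members of the G2 and M phase and S phase lists lie left of 0, with medians of -1.19 and -0.66, while the p53 list runs from -0.24 to 1.02, with a median of 0.14.

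Few DNA damage genes were called. Cdkn1a, the p53-induced inhibitor p21, was at 7.61, 7.42 and 7.80 in NMU glands, against 7.13, 7.01 and 6.83 in controls, a difference of 0.62 that was not called (adjusted p 0.355) although the groups did not overlap. Cyclin G1 (Ccng1), another p53 target, had 0.38 (adjusted p 0.497). Of 25 tested p53 targets Ephx1 alone was called, as above, where 0.6% of all genes were called higher, and the list's median was 0.14. Mgmt, the methyltransferase that removes the methyl group NMU leaves on guanine, was at 8.01, 8.19 and 8.22 after NMU, against 7.55, 7.86 and 7.59 in controls (0.47, adjusted p 0.116). None of 19 tested alkylation and base excision repair genes was called, and the flap endonuclease Fen1, which is also a replication gene, had the smallest p among them (-0.72, adjusted p 0.0599). None of 11 tested mismatch and double-strand break repair genes was called, and their median was -0.38, with 8 wholly below their controls, as were 7.1% of all probe sets.

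Growth factor and hormone signalling gave a large difference without a call. Areg, the EGF receptor ligand amphiregulin that drives ductal growth under oestrogen, was at 4.33, 7.0 and 5.60 in NMU glands, against 8.79, 9.07 and 8.54 in controls. Each NMU array was lower than each control, but the NMU arrays spread widely, and the difference of -3.15 ± 0.90, the most negative of all genes tested, had an adjusted p of 0.103. The prolactin receptor Prlr had 7.52, 9.47 and 8.91, against 9.45, 9.58 and 9.65 (-0.93, adjusted p 0.484), and NMU replicate 1 was the low array for both genes. Egr2, an early growth response factor, fell by 2.53 ± 0.52 (adjusted p 0.0149), being at 5.75, 7.11 and 7.31 after NMU, against 9.16, 9.51 and 9.10 in controls. Its other called probe set fell by 1.42, with an adjusted p of 0.0416 and of 0.0552 with the replicate block. Egr2 was the one call among 20 immediate early genes, against 0.452% of all genes called lower. Crabp1, a carrier of retinoic acid, fell by 1.53 (adjusted p 0.0275), and Calml3, a calmodulin-like protein of epithelium, rose by 2.26 ± 0.39 (adjusted p 0.00296), with 8.25, 9.76 and 8.95, against 6.90, 6.95 and 6.35. The clock gene Per2 was at 9.46, 9.38 and 9.24, against 8.64, 8.94 and 8.93, a difference of 0.52 that was not called (adjusted p 0.495).

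The response at 1 d was set against that of Cop glands at 6 h, where 1364 probe sets were called (6.57%), 777 higher (3.74%) and 587 lower (2.83%), by testing the difference of the 2 responses, which have separate controls. It was called for 501 probe sets (2.41%), 161 higher (0.776%) and 340 lower (1.64%) at 1 d than at 6 h. Of the 85 rises at 1 d, 32 differed from the 6 h response, and of the 73 falls 41 did. These probe sets were picked by the same 1 d response that enters the difference, so that choice can raise their counts. Of the 73 falls, 20 were called higher at 6 h and 16 lower, and of the 85 rises 8 were called higher and 3 lower. At 30 d, where 2055 probe sets were called (9.9%), 917 higher (4.42%) and 1138 lower (5.48%), 19 of the 85 rises were called higher and 21 of the 73 falls lower, and the difference from that response was not tested. Cell cycle genes were the clearest case: the response of Mki67 was -2.49 ± 0.47 at 1 d, against 1.69 ± 0.47 at 6 h (difference -4.19, adjusted p 0.000494), and that of Cdk1 -2.12, against 1.79 (difference -3.91, adjusted p 0.00164). The difference was called lower for 29 of 35 G2 and M phase genes and for 20 of 28 S phase genes, where 1.64% of all probe sets were. Control levels were not the same at both times: Mki67 was between 6.80 and 7.62 in the 1 d controls, and between 5.72 and 6.55 in the 6 h controls. At 6 h 17 of the 35 G2 and M phase genes were called higher, with a median of 1.26.

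Lipid synthesis genes differed in another way. Fasn and Srebf1, not called at 1 d, had responses of -0.55 and 0.37 there, against -1.96 and -1.23 at 6 h (differences 1.41 and 1.60, adjusted p 0.00526 and 4.76e-05). Scd had the lower response at 1 d, -2.93, against -0.98 at 6 h (difference -1.95, adjusted p 0.0079). Me1 gave -2.01 at 1 d and -2.0 at 6 h, and the difference between the 2 responses was not called. Cyp2e1, Mmp11, Aox1 and Fmo1 had rises at 1 d that the 6 h glands did not show, where their responses were -0.52, -1.33, -0.71 and -0.02, and all 4 differences were called (adjusted p 0.000343, 0.000702, 0.000118 and 0.0193). Cxcl10 had 2.30 at 1 d and 2.22 at 6 h, while Cxcl9 had 1.48, against 0.42 at 6 h (difference 1.06, adjusted p 0.0103).

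**Figure D5:**
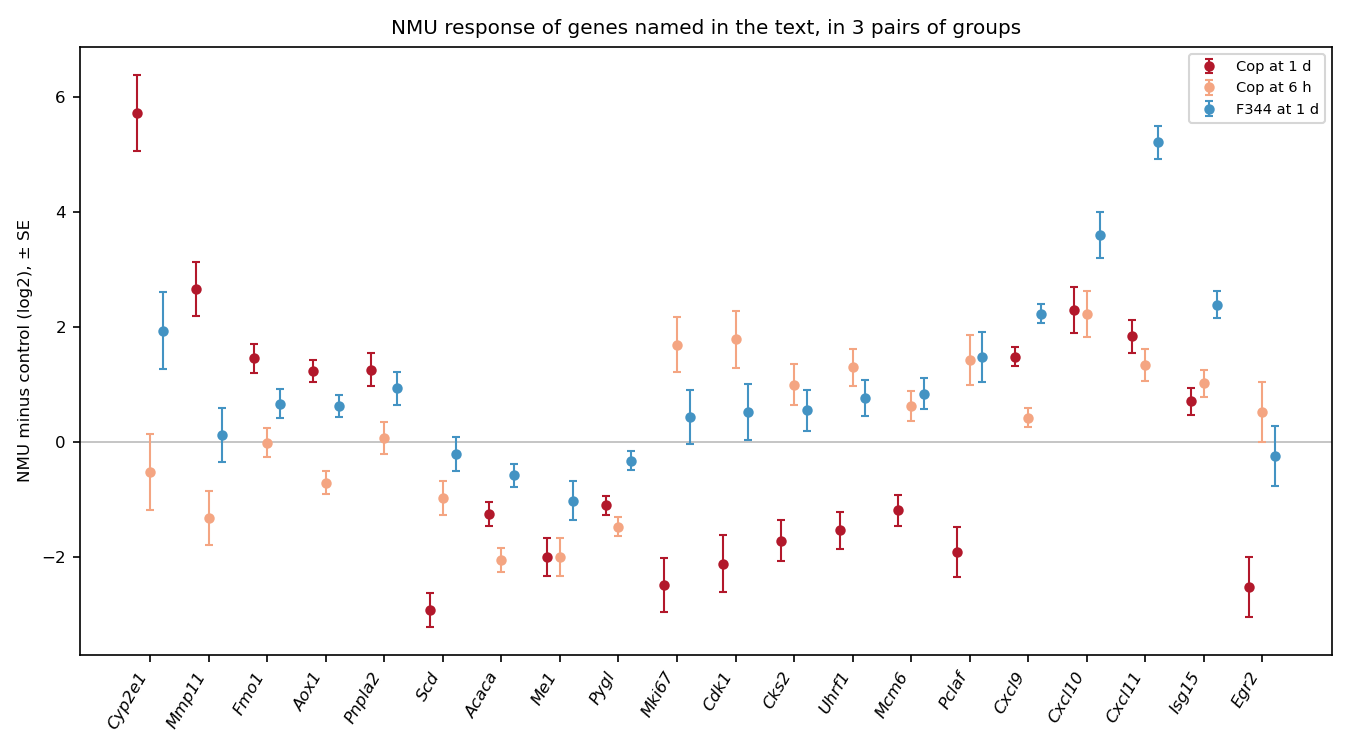
NMU minus control difference (log2, ± SE, 3 arrays per group) of 20 genes in Cop glands at 1 d in red, Cop glands at 6 h in orange and F344 glands at 1 d in blue; a gene with several probe sets is shown by its probe set of smallest p in Cop at 1 d. The cell cycle genes lie below 0 in Cop at 1 d and above 0 in Cop at 6 h, and Cxcl11 is highest in F344, at 5.22.

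F344 glands at 1 d, where 204 probe sets were called (0.983%), 168 higher (0.81%) and 36 lower (0.174%), gave the comparison between strains. The difference of the responses was called for 43 probe sets (0.207%), 3 higher (0.0145%) and 40 lower (0.193%) in Cop. Without F344 NMU replicate 1 the number was 18, and with the compared arrays alone 141. Of the 73 falls in Cop, 14 differed between strains and 3 were called lower in F344 too. Of the 85 rises, 3 differed and 14 were called higher in F344 too. Here too the probe sets were picked by the Cop response that enters the difference, which can raise the counts that differed. Replication genes were among the falls that differed: Pclaf had -1.91 in Cop, against 1.48 in F344 (difference -3.39, adjusted p 0.00861), Uhrf1 -1.54, against 0.77 (-2.31, adjusted p 0.0164), and Mcm6 -1.19, against 0.84 (-2.04, adjusted p 0.00861). The difference was called lower for 6 of 28 S phase genes and for 1 of 35 G2 and M phase genes, Cks2 (-2.27, adjusted p 0.0486), where 0.193% of all probe sets were. Mki67 had a difference of -2.93 that was not called (adjusted p 0.0674). The untreated glands of the strains also differed, with Mki67 between 6.80 and 7.62 in Cop controls and between 5.05 and 5.55 in F344 controls at 1 d.

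Scd fell in Cop but had -0.21 in F344 (adjusted p 0.926), and the difference of -2.72 was called (adjusted p 0.0025). Some interferon-stimulated genes had smaller responses in Cop: Cxcl11 had 1.84, against 5.22 in F344 (difference -3.38, adjusted p 3.8e-05), Isg15 0.70, against 2.39 (-1.68, adjusted p 0.0211), and Irf7 0.74, against 2.34 (-1.59, adjusted p 0.00861). Of the 37 tested, 4 were called higher in Cop, against 34 in F344, and the difference was called lower in Cop for 10. Over all genes tested 0.6% were called higher in Cop. Over all probe sets 0.81% were called higher in F344, and 0.193% had a difference called lower in Cop. Cxcl9 and Cxcl10 rose in both strains, by 1.48 and 2.30 in Cop and by 2.23 and 3.60 in F344, and their differences were not called (adjusted p 0.287 and 0.61). Cyp2e1 had 5.73 in Cop, against 1.94 in F344, where the 3 NMU arrays were spread between 4.44 and 8.77, and the difference of 3.79 was not called (adjusted p 0.113). Pamr1 had 1.33, against -0.58 in F344 (difference 1.91, adjusted p 0.0164), one of the 3 probe sets that were higher in Cop.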

How the data were processed

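RNA of 36 rat mammary glands, 12 groups of 3, was measured on Affymetrix arrays, and the 6 Cop arrays at 1 d are described here. The authors deposited 1 table of log2 expression values per probe set, made with GCOS per the submitters' processing notes. The sources used here do not give the normalization, and array medians ran from 5.66 to 5.77. Arrays give no read depth, so their number limits the precision. Of 31099 probe sets, 57 controls and 10293 dim ones (not above their array's 40th percentile on at least 3 arrays) were left out. This left 20749, covering 11509 genes. Names are those of the platform annotation, updated through RefSeq (20832 probe sets with 1 symbol, 436 with several, 9831 with none).

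limma 3.58.1 (R 4.3.3) fitted the means of all 12 groups with a mean-variance trend and the robust option, so the spread is pooled over 36 arrays. A call is a Benjamini-Hochberg adjusted p under 0.05 over all probe sets; the method was tested on simulated data. Differences between responses came from the same fit. A gene stands for its brightest probe set unless another is named.

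The genes named are part of those a rule gave: the 20 largest rises and 20 largest falls called without overlap, the smallest p of each gene list, Cdkn1a, Mgmt, Prlr and Per2, and the 5 largest response differences each way. Acly, Srebf1, Mcm4, Tk1, Ccnd1, Prodh, Mx1, Irf7, Isg15, Col4a1, Ccng1, Areg, Fabp5, Cdca7, S100a8, S100a9, further probe sets and members of the 5 lists drawn up after the values were seen (lipolysis, fatty acid oxidation, branched-chain amino acids, lysosomal, ribosome biogenesis) were added. All members and lists were chosen with earlier results of these data known.

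Replicate numbers come from the labels. Same-numbered NMU and control arrays deviated together from their group means (correlations 0.202, 0.424 and 0.315). The labels do not say that the numbers pair the arrays. The main fit was therefore unpaired, and the replicate block was an alternative fit. The others were quantile normalization, no or a stricter filter (60th percentile), no trend or robust option, the compared arrays alone, averaged probe sets and leaving out each array.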

Additional observations from a re-analysis of the deposited data

Results flagged for a closer look

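Responses that differed from those of Cop glands at 6 h or of F344 glands at 1 d, by a limma test of the difference with an adjusted p under 0.05, are given here for the genes named above, as the log2 response of Cop at 1 d minus the other. Many of these genes were picked by their Cop response at 1 d, which also enters each difference.

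Against 6 h, lower differences were found for genes of mitosis: Mki67 had -4.19, Cdk1 -3.91, Racgap1 -3.82, Nusap1 -3.65, Ccna2 -3.56, Top2a -3.34, Ccnb2 -3.22 and Cks2 -2.72, and the 2 probe sets of Ccnb1 had -2.04 and -2.34. Replication genes were also lower: Pclaf had -3.34, Uhrf1 -2.84, Cdt1 -2.32, Mcm6 -1.82, Mcm4 -1.74, Pole2 -1.62, Cdca7 -1.33, Fen1 -1.20, Mcm2 -1.18 and Mcm7 -1.14, while Tk1 had -1.46 and -2.43 on 2 probe sets and Ccnd1 -1.02 on one of its 3. Egr2 had -3.05 and -2.20, Crabp1 -1.86, Col15a1 -1.05 and -1.23, Col4a1 -1.17 on one probe set, Scd -1.95, S100a8 -2.55 and S100a9 -3.11.

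Higher differences against 6 h were found for Cyp2e1 (6.25), Mmp11 (3.99), Aox1 (1.95), Fmo1 (1.47) and Cdkn1c (1.64). Lipid and amino acid genes followed, with Fasn at 1.41 and 2.26 on 2 probe sets, Srebf1 at 1.60, Prodh at 1.25, Phyh at 1.03, Pnpla7 at 0.99, Cidec at 0.97 and Eci1 at 0.68. Immune genes with a higher difference were Gpnmb (1.19), Cxcl9 (1.06 and 1.27) and RT1-S3 (0.93 and 0.97).

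Against F344 at 1 d, lower differences were found for Pclaf (-3.39), Cxcl11 (-3.38), Scd (-2.72), Uhrf1 (-2.31), Cks2 (-2.27), Mcm6 (-2.04), Cdt1 (-1.98), Cdca7 (-1.91), Isg15 (-1.68), Irf7 (-1.59), Pole2 (-1.45), Mcm4 (-1.43), Mcm7 (-1.28) and Riox2 (-0.85). Pamr1 had a higher difference (1.91).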

How the results depend on the processing

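The number of probe sets called in Cop at 1 d, 158, was between 122 and 200 under quantile normalization, other filters and no trend. With the replicate number as a block it was 167, and the block ended the calls of Tkt, Nusap1, Mcm2 and Mcm4 and of the second probe sets of Egr2 and Ccnb1 (adjusted p 0.0538 for the last), and of no other probe set named here. With the 6 compared arrays alone 255 were called, 147 of them lower, and the higher share was 42.4%, against 53.8% for all 36 arrays. Only 106 of the 158 calls of the main fit were among these 255. Leaving out one array gave 45 to 151 calls, 25 to 76 higher and 13 to 75 lower. The lowest counts came without control replicate 1, control replicate 2, NMU replicate 1 and NMU replicate 2 (45, 57, 51 and 51). The response difference between Cop and F344 had 18 to 48 calls without one array (18 without F344 NMU replicate 1, 20 without Cop control replicate 2) and 141 with the compared arrays alone, against 43. That between 1 d and 6 h had 306 to 497, against 501 (306 without Cop 6 h NMU replicate 2, 309 without Cop 1 d control replicate 2). No call of the response or of either difference changed sign in any of these settings. The uncalled differences of S100a8 and S100a9 did: they ran from -0.38 to 0.043 and from -0.81 to 0.10 when one array was left out, being positive without control replicate 2. The causes were not tested. With 3 arrays per group, changes near 2-fold are only partly within reach.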

Other observations

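Several gene groups of the gland gave few or no calls. Of 16 tested glucocorticoid-induced genes Cdkn1c alone was called, 14 differences were positive, 8 lay wholly above their controls (7.45% of all probe sets did), and the median was 0.41. None of 18 circadian clock genes was called, though 17 differences were positive, with a median of 0.16 and a range of -0.07 to 0.52. All 9 tested mast cell genes had a positive difference without a call, with a median of 0.40. None of 26 oxidative phosphorylation genes was called, and their differences ran from -0.27 to 0.13 around a median of -0.07. Chaperones of the endoplasmic reticulum (22 genes, median 0.05) and heat shock genes (15 genes, median 0.04) had no call, and neither did 14 endothelial genes (median 0.14), 21 cell death genes (median -0.08) or 23 genes of amino acid stress (median -0.06). Over all 11509 genes tested, with 1 probe set each, the median was 0.0040, and 1.05% were called.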
